A study of Triticum aestivum with 12 samples.

Results

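The effect of light in plants that had received putrescine (PUT) was read from MeDIP-seq counts of wheat leaves, as the comparison WP vs BP. WP stands for PUT under white (W) light and BP for PUT under blue (B) light. The members are genomic loci with a count above 10 in at least 2 of the 3 libraries of either group. These were 366695 of the 11509120 loci of the count table (3.19%). A locus is a stretch of the genome that was covered by reads, and its value is the number of reads counted there in each library.

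All plants were of the winter wheat (Triticum aestivum) variety Mv Béres, grown in hydroponic solution in growth chambers at 250 µmol m-2 s-1. PUT was added at 0.5 mM from 7 days after germination and kept for 7 days, so both groups had the same variety, agent, dose, time and light intensity, and differed in the light spectrum. W light was 45.71% green, 32.32% blue, 1.25% far-red and 20.71% red. B light was 82.14% blue, 16.7% red, 1% green and 0.17% far-red. Each group had 3 libraries from biological repetitions, named WP1 to WP3 and BP1 to BP3. The p values below rest on the spread between these libraries, which the edgeR fits share in part over loci of like mean count. In the fit of all 12 libraries at loci it is shared in full. The matching groups without PUT, WC and BC, have 3 libraries each and enter where the effect of light with PUT is set against that without it. The DNA came from whole leaves of 1 variety, so cell types of the leaf are mixed. How many plants made up a library, and whether the groups shared a growth chamber, are not given in the sources used here.

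5-methylcytosine (5mC) is the main modified base of plant DNA. It lies mostly over transposons and other repeats, which fill most of the wheat genome, and keeps them silent, while methylation near the start of a gene often goes with low expression. In MeDIP an antibody pulls down fragments that carry 5mC, so a locus with more methylated copies returns more reads. PUT is the diamine from which plants make spermidine and spermine, with aminopropyl groups from decarboxylated S-adenosylmethionine. That compound is made from S-adenosylmethionine, which itself donates the methyl group of 5mC. Bread wheat holds the subgenomes A, B and D, each with its own copy of most genes. A read count is not a methylation level: more methylated molecules and more copies of a sequence in the DNA cannot be told apart by it.

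The kept loci were longer than the rest, with a median of 2509 bp against 522 bp over all loci, and held few reads, with a median mean count of 10.2. The filter was passed through WP only at 147823 loci, through BP only at 144064 loci and through both groups at 74808 loci (20.4%). A locus that passed through 1 group is high there by construction, and this bears on every count of called loci. At the edge of the rule, 71171 kept loci had 11 as the second-highest count of their higher group, and 92195 loci with 10 were left out. The total count was 18025436, 17097608 and 17339219 in WP and 19641114, 21355140 and 20549749 in BP. The kept loci took 24.3%, 24.3% and 23.9% of it in WP and 22.4%, 21.4% and 18.2% in BP.

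Some libraries stood apart from their group. The log2 counts of BP3 over the 366695 kept loci had a Pearson correlation of 0.30 with BP2, of -0.04 with BP1 and of -0.20 to -0.15 with the WP libraries. Those of BP1 correlated at 0.14 with BP2 and at 0.16 to 0.25 with the WP libraries. These correlations are over loci that the group filter selected and are given as a description. In WP2, chromosome 4B held 4.67% of the count, against 5.48% to 5.53% in the other 5 libraries. This deficit ran along the whole chromosome: in 34 bins of 20 Mb, the WP2 share of its library was 0.816 to 0.890 of the median of the other 5 libraries. On chromosome 1B, the first 240 Mb held 9.41% of the loci and 1.60% to 1.86% of the count of that chromosome in the 6 libraries. Results that rest on BP3 or WP2 are therefore given with and without them.

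Most of the loci called between WP and BP had reads in BP and next to none in WP, a majority that depended on BP3 and on the scaling, as given below. A locus was called at the thresholds of the study, a log2 fold change beyond 1.5 in either direction together with p below 0.01 before adjustment, here by edgeR's quasi-likelihood test. At 6497 loci (1.77% of the loci tested) the count was lower in WP, and at 620 loci (0.169%) it was higher, 7117 in all (1.94%). The loci called lower had median counts of 0, 0 and 0 in the WP libraries and of 10, 16 and 20 in BP1, BP2 and BP3. All 3 WP libraries were at 0 at 3118 of them (48.0%), against 1.67% of all kept loci. The loci called higher had median counts of 17, 17 and 18.5 in WP and of 0 in each BP library, and all 3 BP libraries were at 0 at 274 of them (44.2%), against 0.422% of all kept loci. Of the called loci, 6395 of the 6497 lower and 619 of the 620 higher had passed the filter through the higher group only. The filter and the call select loci near 0 in the other group, so the shares at 0 are no separate result. Without PUT, the loci called lower had median counts of 0, 4 and 3 in WC and of 4, 7 and 5 in BC, at or between the levels of WP and BP. The loci called higher had 0, 7 and 8 in WC and 5, 2 and 5 in BC, with overlap. As the loci were chosen for extreme counts in WP and BP, levels in between are no result about light without PUT.

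At an adjusted p below 0.05 (Benjamini-Hochberg over the 366695 loci), edgeR's quasi-likelihood test found 0 loci (0%), and the smallest adjusted p was 0.493. The unadjusted p was below 0.05 at 29956 loci (8.17%). By the likelihood ratio test of edgeR, which the study used, 4582 loci were lower and 434 higher at an adjusted p below 0.05, and by DESeq2 6470 were lower and 331 higher.

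The excess of loci called lower rested on BP3 and on the scaling, and the number called higher fell without any 1 of the WP libraries. BP3 had the highest count of the 6 libraries at 52.2% of the loci called lower, BP2 at 35.4% and BP1 at 12.5%, while over all kept loci these shares were 15.7%, 16.6% and 17.2%. Without BP3, 1168 loci were called lower (0.319%) and 1051 higher (0.287%), 2219 in all (0.605%), so that 52.6% of the called loci were lower in place of 91.3%. Without WP1, WP2 or WP3, the number called higher fell from 620 to 262, 300 and 410, and 7247, 6660 and 6417 loci were called lower. Without BP2, 2912 were called lower and 1140 higher, and without BP1 9651 and 1666. Of the loci called with all libraries, 894 of the lower and 444 of the higher were also called without BP3. With the library size taken over every locus of the table, 2435 loci were lower (0.664%) and 2353 higher (0.642%), a share of 50.9% lower. That scaling moved the median log2 difference of all kept loci from -0.11 to 0.29, a shift of 0.40, and the log2 differences below are relative to the first. With both changes together, 515 loci were lower and 2096 higher. At 663 loci the call of lower, and at 444 that of higher, was made with all libraries, without BP3 and with the library size over every locus.

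**Figure D1:**
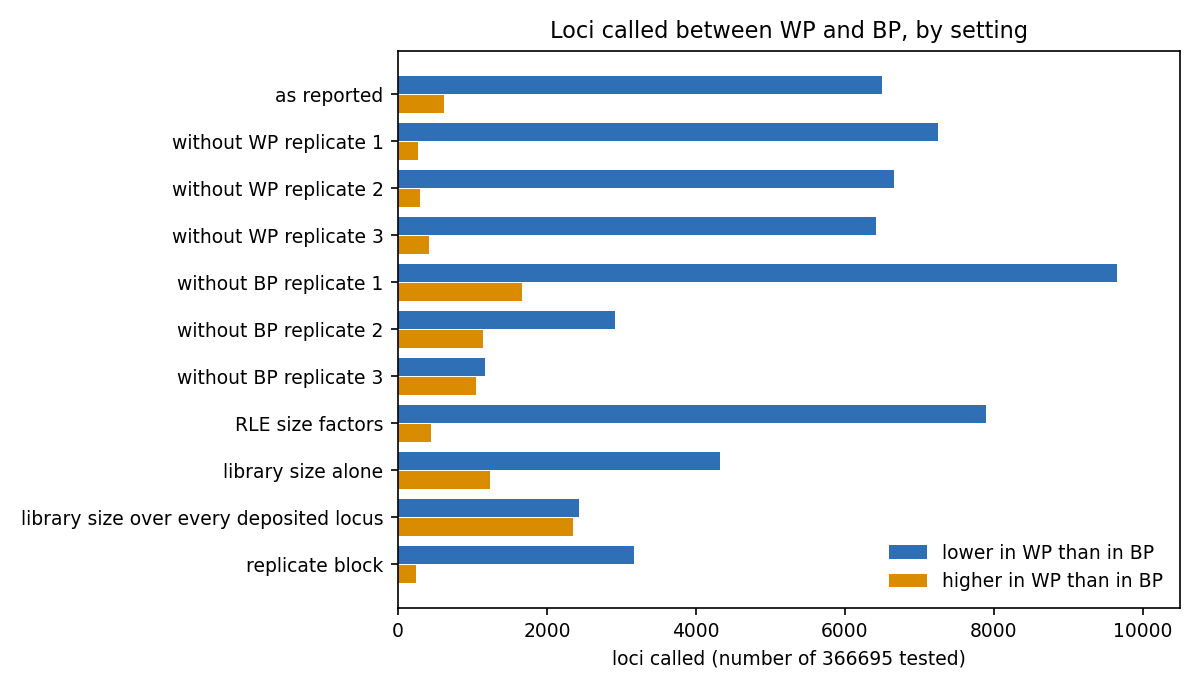
Number of loci called lower (blue) and higher (orange) in WP than in BP, of 366695 tested, for the fit as reported and for other choices of libraries and scaling. The bars for loci called lower run from 1168 without BP replicate 3 to 9651 without BP replicate 1, and those for loci called higher from 235 with the replicate block to 2353 with the library size over every locus.

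The locus with the smallest p lay on chromosome 7D (chr7D:407666188-407670556, IWGSC CS RefSeq v2.1, 4369 bp), more than 3000 bp from any annotated gene. It had counts of 0, 0 and 1 in WP and of 28, 38 and 44 in BP, and 7 to 19 in the 6 libraries without PUT. The groups did not overlap, and the ratio of BP to WP was 126 with an exact 95% counting interval of 22.2 to 5034 (log2 difference -6.56 ± 1.10 SE, p = 6.4e-06, adjusted p = 0.493 by edgeR's quasi-likelihood test). Such intervals cover counting error only, since PCR copies of 1 molecule were not marked.

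The other loci with the smallest p among those called lower were also nearly empty in WP. At chr6B:670811367-670813316 the counts were 0, 0 and 0 in WP and 11, 26 and 60 in BP, at least 37.1-fold lower in WP. At chr4B:379943881-379945448 they were 0, 0 and 0 in WP and 11, 49 and 27 in BP, at least 33.3-fold lower. Here the 3 WC libraries also had no read and the BC libraries had 11, 8 and 4, so that reads were counted under B light alone, with and without PUT. At the chr6B locus the groups without PUT overlapped, with 23, 3 and 8 in WC and 7, 7 and 1 in BC. A group at 0 was given a floor of 3 counts over its 3 libraries for these folds.

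At chr4A:665778766-665781415 WP had 0, 0 and 0 and BP had 19, 51 and 13, at least 31.8-fold lower in WP. At chr7B:244685739-244690968, the longest of them with 5230 bp, WP had 1, 3 and 1 and BP had 28, 41 and 52, and the mean CPM (counts scaled to a library of 1000000) was 27.8 times as high in BP. These loci were called without BP3 as well. At chr5B:435487422-435489797 WP had 0, 0 and 0 and BP had 12, 13 and 66. Without BP3 it was not called, with a fitted log2 difference of -6.68 in place of -8.20. Fitted values against a group at 0 depend on the prior count and are no bounds. Without PUT, the chr4A locus had 0, 15 and 0 in WC and 13, 19 and 20 in BC. WC and BC overlapped at the chr7B locus, with 11, 29 and 3 against 9, 9 and 7. They also overlapped at the chr5B locus, with 14, 6 and 2 against 2, 22 and 10.

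Among the loci called higher, the smallest p was found at chr3A:66206286-66208530, 1945 bp from LOC123057934, a protein-coding gene for which the sources used here give no product. The counts were 33, 26 and 28 in WP and 0, 1 and 0 in BP, a ratio of 75.8 with a counting interval of 13.2 to 3027. A second locus of this chromosome, chr3A:507457605-507460234, had 25, 20 and 42 in WP and 1, 0 and 0 in BP, with the same ratio and interval. At both, every BP library was at 0 or 1, and the WP libraries lay closer together at the first than at the second.

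At chr5A:270778627-270780372 WP had 33, 20 and 20 and BP had 0, 0 and 0, at least 21.2-fold higher in WP. At chr2B:319157508-319159167 WP had 34, 14 and 22 against 0, 0 and 0, at least 20.3-fold. At chr1A:73032630-73034512 WP had 12, 21 and 34 against 0, 0 and 0, at least 19.5-fold. At chr1B:117420224-117421014, in the part of 1B with few reads, no library was at 0: WP had 32, 24 and 82 and BP had 3, 2 and 3, with a mean of 9.93 ± 6.32 CPM in WP and of 0.692 ± 0.221 in BP (SD, n = 3 libraries each). WC had 30, 8 and 33 there and BC 45, 27 and 1, so the groups without PUT overlapped. The 6 loci named here as higher were also called without BP3.

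**Figure D2:**
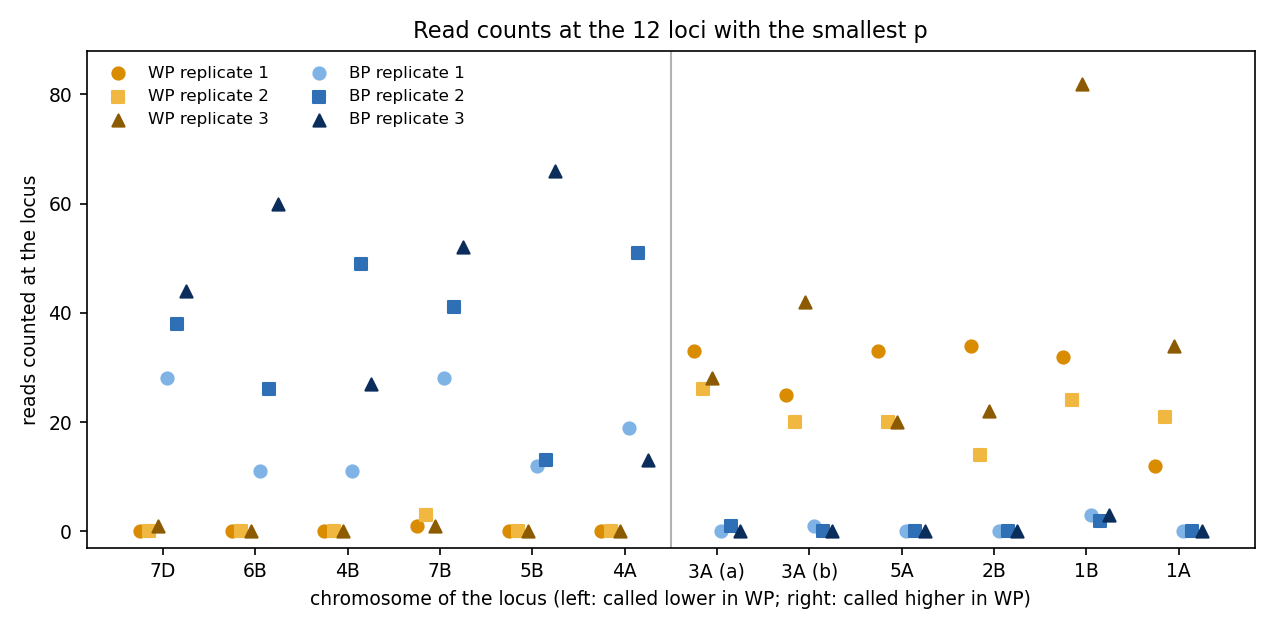
Reads counted in each library at the 6 loci called lower (left) and the 6 called higher (right) in WP with the smallest p, labelled by chromosome. Points are libraries, orange for WP and blue for BP. On the left WP stays between 0 and 3 reads, and on the right BP does, while the other group spreads from 11 to 66 on the left and from 12 to 82 on the right.

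Along the genome, the D subgenome took a larger part of the reads in WP. Its share of the count was 31.2%, 31.5% and 31.1% in WP and 30.8%, 30.3% and 30.3% in BP, with no overlap. The A subgenome had 34.3%, 34.6% and 34.4% in WP and 34.5%, 35.2% and 36.1% in BP, where BP1 lay within the WP range. The B subgenome had 34.5%, 33.9% and 34.5% in WP and 34.6%, 34.5% and 33.6% in BP, with overlap. Each of the 7 chromosomes of the D subgenome had a higher share in every WP library than in any BP library. Chromosome 4D, which had the smallest p in the fit given next, had 4.39%, 4.44% and 4.37% in WP and 4.31%, 4.24% and 4.23% in BP.

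Of 34 such values per library, 11 (32.4%) did not overlap between the groups, 9 higher and 2 lower in WP. The 9 higher ones were the share of the D subgenome, those of its chromosomes and the share of the count at the kept loci. The chromosome shares add up to that of the subgenome, so they are not separate results. The kept loci were chosen by the filter on these same libraries, so the permutation test given below cannot decide on their share. The 2 lower ones were the share of chromosome 3A and the reads on the mitochondrial sequence, with 4.22, 3.33 and 4.04 CPM in WP and 4.63, 6.13 and 7.35 in BP. With 3 libraries against 3 the two-sided exact permutation test cannot give a p below 0.1, and adjusted over the 34 values these p values were 0.309. Fitted by edgeR's quasi-likelihood test on the counts summed per chromosome, 0 of 21 chromosomes (0%) passed an adjusted p of 0.05, the unadjusted p of 6 (28.6%) was below 0.05, and the likelihood ratio test and DESeq2 also found 0. The smallest adjusted p was 0.0956, for chromosome 4D, with a log2 difference of 0.036 ± 0.009 (SE). Chromosome 2D was next among those higher in WP, at 0.031 ± 0.011. The largest differences to the other side were -0.085 ± 0.065 for 4B and -0.051 ± 0.023 for 6A, and that of 4B was -0.006 without WP2. Without BP1, which lay nearest to WP, 9 chromosomes passed.

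**Figure D3:**
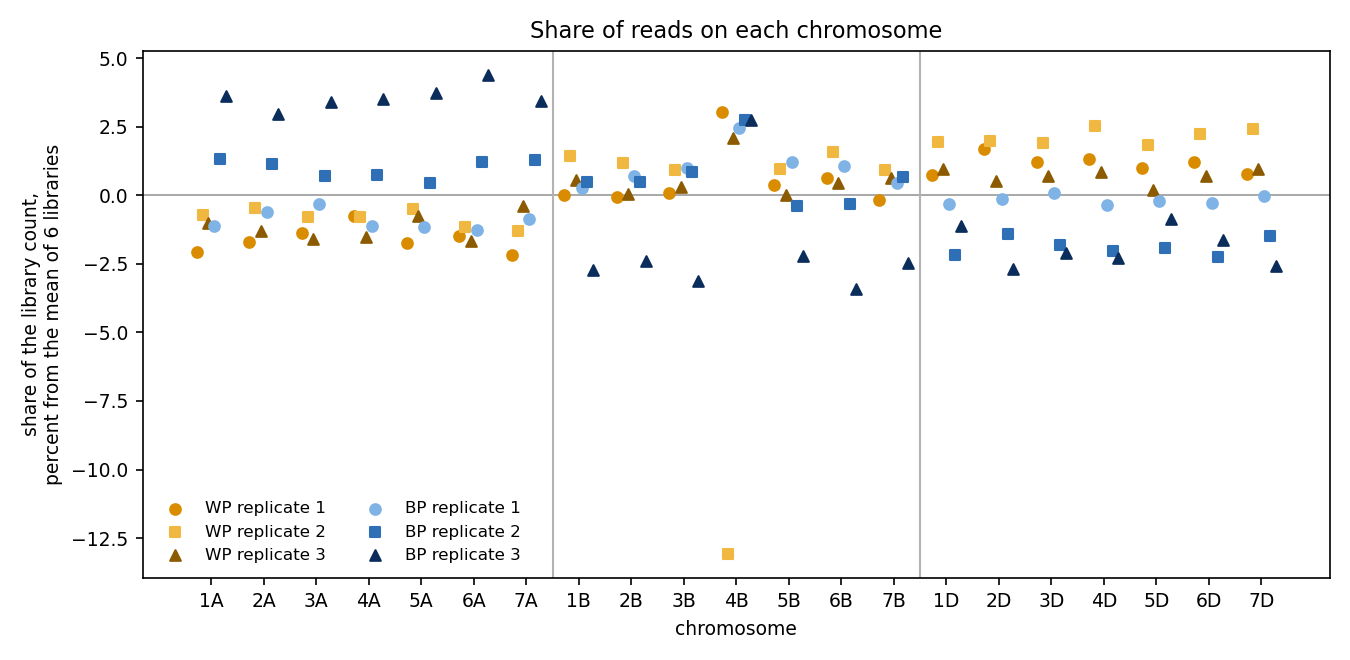
Share of the library count on each chromosome, as percent deviation from the mean of the 6 libraries, for the A, B and D subgenomes from left to right. Points are libraries, orange for WP and blue for BP. The WP points lie above the BP points on the 7 D chromosomes, BP replicate 3 is highest on the 7 A chromosomes, and WP replicate 2 is lowest on 4B.

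Called loci followed the same order of subgenomes in part. The share of tested loci called lower was 2.01% in A, 1.84% in B and 1.46% in D, and the share called higher was 0.168%, 0.170% and 0.169%. Without BP3, the shares called lower were 0.364%, 0.323% and 0.268%. Between chromosomes, the share called lower ran from 1.36% on 2D to 2.14% on 1A and the share called higher from 0.123% on 4B to 0.212% on 2B. These shares are descriptions over loci, which are not replicates, and no chromosome was free of called loci in either direction.

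Position along the chromosome made little difference. Each chromosome was divided into 20 bins of 5% of its length, and the share of reads per bin, taken over all chromosomes, overlapped between WP and BP in each bin. The share of tested loci called lower was 1.43% to 1.99% over the 20 bins. It was 1.60% in the outermost 10% at each chromosome end, which held 38459 of the tested loci, and 1.79% in the interior. Without BP3 these were 0.341% and 0.316%, the opposite order. The outermost parts held 13.6%, 14.0% and 14.3% of the count in WP and 14.2%, 14.1% and 13.3% in BP (exact permutation test, p = 0.8).

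With all libraries, shorter loci were called more often than longer ones, in both directions. The share called lower was 9.86% of 294 loci under 500 bp, 4.82% of 11704 loci from 500 to under 1000 bp, 2.78% of 103342 loci from 1000 to under 2000 bp, 1.26% of 230103 loci from 2000 to under 5000 bp and 0.631% of 21252 loci of 5000 bp and more. Without BP3 it was 2.04%, 0.906%, 0.450%, 0.237% and 0.216%, in the same order. The share called higher was 0.680%, 0.384%, 0.277%, 0.120% and 0.0518% over the same classes. Without BP3 it was 0.680%, 0.299%, 0.423%, 0.236% and 0.165%, so this order held in part. The median log2 difference was -0.63 under 500 bp, -1.22 at 500 to under 1000 bp and 0.11 at 5000 bp and more. Without BP3 these medians were -0.13, -0.89 and 0.005, and with the library size over every locus -0.10, -0.75 and 0.49. The share called lower also varied with the mean count. It was 3.81% of the loci under a mean count of 7.5 and 1.05% of those from 15 to 30, but 1.82% of those from 30 to 100 and 12.7% of those above 100, and the parts of length and of count were not separated. Over every locus of the table, loci of 500 to under 1000 bp took 23.7%, 24.1% and 24.7% of the count in WP and 24.6%, 26.4% and 28.4% in BP, with overlap.

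A next kept locus within 10 kb existed for 2189 of the loci called lower, and 60 of these neighbours (2.74%) were called lower too, against 1.77% of all loci tested. For the loci called higher, 0 of 211 such neighbours were called higher, against 0.169% of all loci, a share at which 211 neighbours say little. The densest stretches were 1 Mb windows on the D subgenome. The window from 162 Mb of chromosome 6D held 11 loci called lower of 68 tested, that from 145 Mb of 5D held 10 of 82, those from 146 Mb of 5D and 114 Mb of 6D held 9 of 91 and 9 of 74, and that from 376 Mb of 4D held 7 of 97. Without BP3, 1, 0, 0, 0 and 1 loci of these windows were called.

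In the 5D window from 145 Mb, the CPM values were 73.6, 101 and 68.9 in WP and 66.7, 120 and 310 in BP. BP2 and BP3 lay above the WP libraries, BP3 by far, and BP1 lay below them. Among the libraries without PUT, BC2 and WC2 were also high, with 148 under B light and 141 under W light. In the window from 147 Mb, BP1 was highest with 35.4 and BP2 had 31.7, while BP3 was the lowest of the 6 libraries. The window from 162 Mb of 6D had 90.8, 108 and 80.9 in WP and 86.0, 121 and 238 in BP, and the next one, from 163 Mb, had 75.7 to 84.7 in all 6 libraries. BP3 was also the highest of the 6 libraries in the window from 144 Mb of 5D, with 37.6 CPM, and in those from 375 and 377 Mb of 4D, with 97.5 and 190 CPM.

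**Figure D4:**
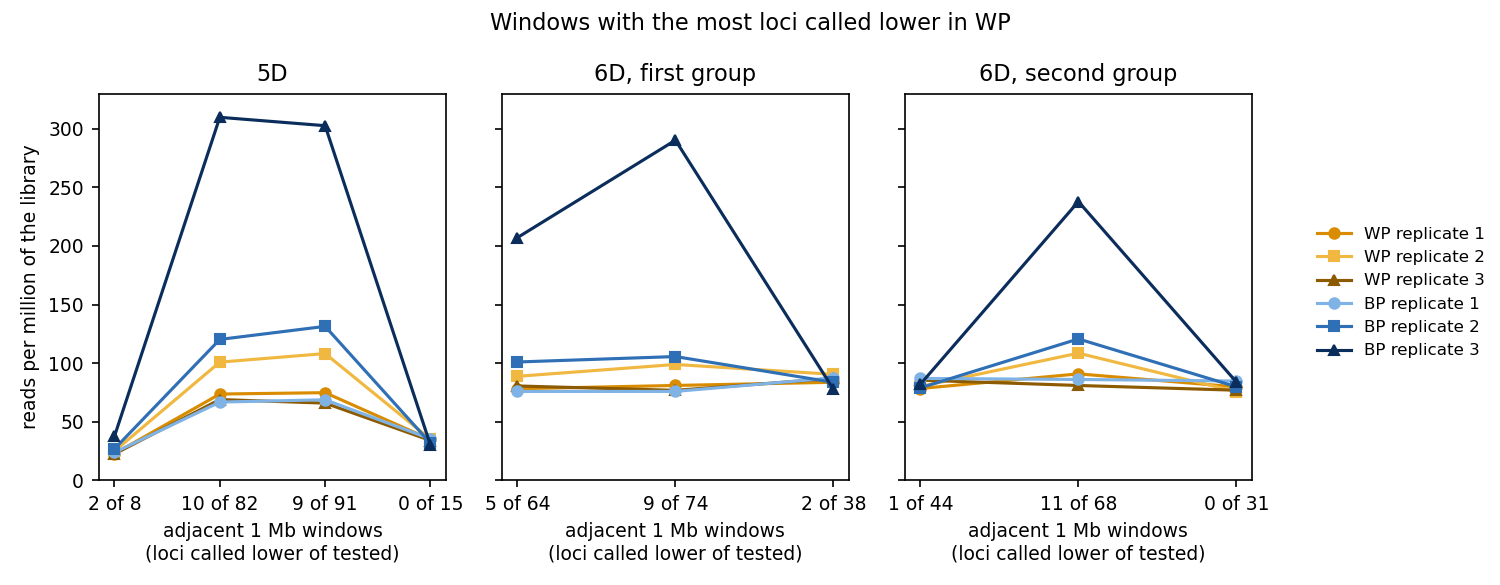
CPM of the library in adjacent 1 Mb windows around the stretches with the most loci called lower in WP, on 5D and at 2 places on 6D. Lines are libraries, orange for WP and blue for BP, and the axis gives loci called lower of loci tested. BP replicate 3 rises to 310, 290 and 238 CPM, while the other 5 libraries stay at or below 131.

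Counts were also summed over every locus in 1 Mb windows, with a median of 1411 reads per window and library. Of 14231 windows tested, edgeR's quasi-likelihood test found 0 (0%) at an adjusted p below 0.05, with a smallest adjusted p of 0.474. The unadjusted p was below 0.05 in 1247 windows (8.76%), 654 lower and 593 higher in WP, the likelihood ratio test found 1 window, lower in WP, and DESeq2 0. Of the 654 windows 372 lay on A, 203 on B and 79 on D, and of the 593 windows 95 lay on A, 193 on B and 305 on D. The tested windows were 4978 on A, 5249 on B and 4004 on D. Without BP1, 107 windows were lower and 72 higher at an adjusted p below 0.05.

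The windows with the smallest p differed by much less than the called loci. The first 1 Mb of chromosome 6B had counts of 131, 243 and 191 in WP and of 343, 406 and 586 in BP, with no overlap (log2 difference -1.01 ± 0.22, SE). Those from 353 Mb of 7A, 572 Mb of 6A, 501 Mb of 6A and 0 Mb of 7D had log2 differences of -0.44, -0.39, -0.42 and -0.63. BP1 lay within the WP range in the 7D window, with 62.0 CPM against 49.9 to 67.2, and in the 7A window, with 79.5 against 69.0 to 79.6. Among windows higher in WP, the one from 466 Mb of 7B had 98.4, 95.6 and 86.2 CPM in WP and 75.0, 75.9 and 74.9 in BP (log2 difference 0.31 ± 0.08, SE). The windows from 273 Mb of 4A, 142 Mb of 7B, 191 Mb of 5B and 573 Mb of 5A had log2 differences of 0.31, 0.31, 0.29 and 0.36, with no overlap between the groups.

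Loci with very many reads formed a group of their own. Of 166 loci with a mean count above 100, 21 (12.7%) were called lower and 0 higher, against 1.77% and 0.169% of all loci tested. BP3 had the highest CPM value at 19 of the 21, and BP1 lay at or under the highest WP library at 17. At 3 of the 21 the groups did not overlap, and 8 were called lower without BP3. These loci were chosen for description after their values were seen. Copy number was not measured here.

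The largest count of all was at chr4B:592421107-592422674, with 5055, 3956 and 3825 in WP and 6152, 5434 and 26466 in BP. BC2 also stood out there, with 15541 against 8176 and 8557 in the other BC libraries. The log2 difference was -1.93 ± 0.49 (SE), and -0.46 without BP3. The first 96 bp of chromosome 4A (chr4A:1-96) had 86, 184 and 125 in WP and 83, 978 and 3077 in BP, with BP1 as low as WP. Its log2 difference was -3.77 ± 0.79, and -2.07 without BP3, where it was still called.

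The same order of the libraries was seen at chr5A:346441270-346442186, with 131, 146 and 89 in WP and 85, 702 and 2498 in BP, and BC2 had 566 there against 59 and 149. At chr7B:404154299-404155469 WP had 37, 70 and 39 and BP 55, 375 and 964. At chr3B:851932696-851934019 WP had 36, 65 and 36 and BP 29, 261 and 755. The direction turned at a locus of chromosome 5B (chr5B:144109266-144110471), with 983, 664 and 471 in WP and 452, 519 and 7717 in BP: the log2 difference was -2.46 with BP3 and 0.51 without it.

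BP3 was not the highest at the other 2 of the 21. At chr1D:395747225-395748824, 445 and 658 bp from a pair of tRNA genes, WP had 55, 41 and 87 and BP had 260, 189 and 97. The groups did not overlap, and the log2 difference was -1.74 ± 0.52 (SE), and -1.91 without BP3. At chr2D:199145781-199147590 WP had 33, 39 and 98 and BP 226, 190 and 65, so that BP3 lay within the WP range.

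**Figure D5:**
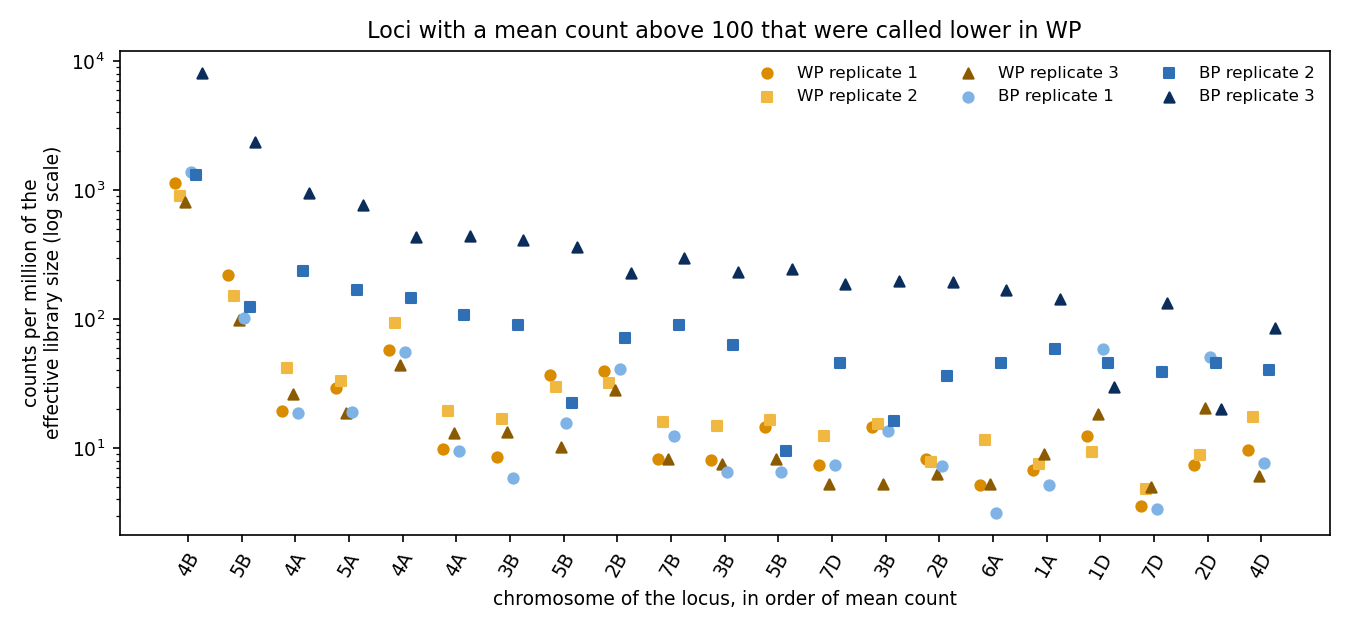
CPM of the effective library size (log scale) at the 21 loci with a mean count above 100 that were called lower in WP, in order of mean count and labelled by chromosome. Points are libraries, orange for WP and blue for BP. BP replicate 3 is the highest point at 19 of the 21, and BP replicate 1 mostly lies among the WP points.

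Few of the tested loci, and few of the called ones, lay at genes. Of the tested loci, 24593 (6.71%) overlapped a protein-coding gene extended by 3000 bp on both sides. Of these, 277 (1.13%) were called lower and 45 (0.183%) higher, against 1.83% and 0.168% of the 333231 loci with no gene in that range. Without BP3 the shares were 0.256% lower and 0.277% higher at genes, against 0.320% and 0.286% with no gene in range. Within the gene itself, 75 (0.941%) of 7969 tested loci were called lower and 15 (0.188%) higher, against 1.80% and 0.169% of the loci outside genes. Without BP3 these shares were 0.301% and 0.213% within genes and 0.317% and 0.289% outside, so the difference in loci called lower was mostly gone. In all, 289 protein-coding genes had a locus called lower in their extended range, 51 had one called higher, and 0 had both, of 22639 genes with a tested locus. No gene had more than 2 loci called lower, and 2 genes had that many.

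LOC123103483 encodes a disease resistance protein RGA2-like, a member of the intracellular immune receptors of plants. Its locus, which overlaps 1 end of the gene (chr5A:380380250-380381588), had 0, 0 and 0 in WP and 14, 33 and 7 in BP, at least 20.7-fold lower in WP. WC had 5, 2 and 5 there and BC 1, 1 and 7, so the groups without PUT overlapped. LOC123188396 encodes a probable pyruvate, phosphate dikinase regulatory protein of the chloroplast, which switches that enzyme on and off with light in C4 leaves. Its locus, 234 bp from the gene (chr2A:210006575-210008888), had 0, 0 and 0 in WP and 18, 10 and 21 in BP, at least 18.8-fold lower. It was not called without BP3, where the fitted log2 difference was -6.83 in place of -7.20.

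The other named loci called lower lay at genes for which the sources used here give no product, or an uncharacterized protein. LOC123119731 on chromosome 1B had 17, 22 and 16 in BP at a locus 442 bp from the gene, and that locus lies inside LOC123119736 as well. LOC123090191, also on 1B, had 23, 12 and 17 in BP, LOC123086116 on 4A had 11, 20 and 22 and LOC123041116 on 2B had 5, 34 and 22. WP was at 0 in each library at all 4, and they were called without BP3. LOC123076197 on 3D, LOC123134240 on 6B, LOC123099470 on 4D and LOC123039264 on 2B were likewise at 0 in WP, with 5, 23 and 31, with 4, 18 and 33, with 12, 18 and 20 and with 3, 23 and 27 in BP. These were not called without BP3, where their fitted log2 differences were -6.86, -6.52, -6.95 and -6.76, in place of -7.51, -7.44, -7.22 and -7.36.

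Among the genes with a locus called higher, LOC123171322 encodes a peroxidase 2-like protein, of the secreted peroxidases that act on cell wall phenolics. Its locus, 669 bp from the gene (chr1D:404058370-404060801), had 28, 8 and 15 in WP and 0, 0 and 0 in BP, at least 14.8-fold higher. LOC123122331 encodes an endoglucanase 24-like protein, of the enzymes that cut cellulose. Its locus (chr5D:424428248-424429054) had 17, 12 and 17 in WP and 0, 0 and 0 in BP, at least 13.4-fold higher. LOC543060 encodes the sodium/hydrogen exchanger 2, an antiporter, and its locus (chr2A:75634318-75635934) had 10, 13 and 21 in WP and 0, 0 and 0 in BP, at least 12.8-fold higher.

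The remaining named loci called higher had at most 1 read in any BP library. Those near LOC123095704 (protein saal1-like), LOC123111309, LOC123159125 and LOC123082731 were at 0 in each BP library, with 6, 11 and 28, with 8, 27 and 13, with 23, 11 and 11 and with 13, 0 and 43 in WP. LOC123190385 had 14, 37 and 11 in WP and 1, 1 and 0 in BP, and LOC123147910 had 4, 32 and 22 against 1, 0 and 0. WP2 was the highest library at both. Without WP2, LOC123190385, LOC123147910, LOC123111309 and LOC543060 were not called, with fitted log2 differences of 3.84, 4.66, 6.27 and 6.82 in place of 4.58, 5.27, 6.93 and 6.78, while the other named loci near genes that were called higher kept the call.

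The study listed 20 genes as most changed in this comparison, 10 in each direction, and 18 of them had a tested locus. As these genes were chosen on the same libraries, their direction is not independent evidence. All 9 tested among those listed as lower had a locus called lower, with WP at 0 in each library, and 2 of the 9 were called without BP3. These 2 were RGA2-like, given above, and LOC123103666, a lysine-specific demethylase JMJ25-like, of the enzymes that remove methyl groups from histone H3. Its locus, 40 bp from the gene (chr5A:409470027-409473057), had 0, 0 and 0 in WP and 21, 26 and 4 in BP, at least 19.5-fold lower in WP. Without PUT it had 0, 8 and 3 in WC and 10, 9 and 8 in BC.

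The 7 others missed the threshold without BP3, with fitted log2 differences that stayed strongly negative: the median of the 9 genes was -7.09 with BP3 and -6.44 without it. They included LOC123143509, a probable subunit PDX2 of pyridoxal 5'-phosphate synthase, which makes vitamin B6, with 5, 12 and 30 in BP, and LOC123137412, an eukaryotic translation initiation factor 2A-like, with 15, 14 and 17. The 3 BP counts of the latter lay close together. LOC123062072 (glucosidase 2 subunit beta-like) had 6, 15 and 22 in BP, LOC123120516 (a polyadenylate-binding protein-interacting protein) 3, 13 and 24, LOC123060012 (TOM1-like protein 6) 8, 11 and 21 and LOC123147642 (protein mago nashi homolog 2) 16, 2 and 22.

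All 9 tested among those listed as higher had a locus called higher, with BP at 0 in each library, and 8 of the 9 were called without BP3. Beside the peroxidase, the endoglucanase, the exchanger and saal1-like, these were LOC123083150, a RING-H2 finger protein ATL1-like of the ubiquitin ligase family, with 13, 18 and 12 in WP, and LOC123049040, a PELPK1-like protein, with 15, 9 and 19. LOC123181860, a protein N-terminal glutamine amidohydrolase-like, had 16, 10 and 14 in WP, and LOC123053672, an ATP23-like protease of the inner mitochondrial membrane, had 12, 20 and 7. LOC123142534, a non-lysosomal glucosylceramidase-like, had 12, 19 and 7 and was not called without BP3, with a fitted log2 difference of 6.68 in place of 6.60. Without WP2, it, ATP23-like, the amidohydrolase, ATL1-like and the exchanger were not called, with fitted log2 differences of 6.15, 6.15, 6.80, 6.53 and 6.82.

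Genes of the pathways that link PUT, light and methylation were counted in 10 lists drawn from product names. The lists held 49 genes, 38 of which had a tested locus, 46 loci in all, and 3 of these were called lower and 2 higher, where 1.77% and 0.169% of all loci tested were called. With so few loci, the counts of single lists are set against the same shares and nothing is read from them. All product names come from genes the study had picked from these libraries, so the lists hold part of each pathway and their counts are not independent of the data. The DNA methylation list held 1 gene, LOC123103996, a DRM2-like methyltransferase of the kind that sets 5mC de novo. Its locus (chr5A:457964807-457965975) had 1, 16 and 0 in WP and 13, 1 and 21 in BP and was not called (log2 difference -1.29 ± 1.35, SE). In each group 1 library went against the other 2.

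Of the histone methylation genes, 1 of 7 loci was called, that of JMJ25-like given above. LOC123077721, an ATX4-like histone-lysine N-methyltransferase, had 8, 0 and 8 in WP and 34, 13 and 25 in BP with no overlap (log2 difference -2.37 ± 0.99, SE, adjusted p = 0.542 by edgeR's quasi-likelihood test, not called). LOC123116230, a SETD1A-like histone-lysine N-methyltransferase, had 17, 21 and 19 in WP and 40, 36 and 33 in BP, with a mean of 4.19 ± 0.517 CPM in WP and of 9.25 ± 0.771 in BP (SD, n = 3 libraries each). These groups were narrow and did not overlap, and edgeR's quasi-likelihood test gave an unadjusted p of 0.0922, so the locus was not called.

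Polyamine metabolism had 3 tested loci, and 0 were called. LOC100682470, spermine synthase, had 0, 1 and 9 in WP and 11, 21 and 1 in BP, and LOC123125309, a putrescine hydroxycinnamoyltransferase 3-like that joins PUT to phenolic acids, had 11, 0 and 0 in WP and 14, 11 and 10 in BP. The groups overlapped for the former, and for the latter they overlapped in counts but not in CPM, where WP1 had 2.47 and BP 2.63 to 3.16. The S-adenosylmethionine cycle had 3 tested loci as well, of which 0 were called, and LOC123121703, a 1-aminocyclopropane-1-carboxylate oxidase of ethylene synthesis, had 0, 6 and 0 in WP and 17, 17 and 7 in BP. That locus was called lower without WP2.

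Light perception and signalling had 2 tested loci, and 0 were called. LOC123092238, a COP1-interacting protein 7-like of the light signalling pathway, had 4, 6 and 3 in WP and 9, 24 and 33 in BP with no overlap (log2 difference -2.59 ± 0.94, SE, adjusted p = 0.516 by edgeR's quasi-likelihood test). LOC123118249, a PHYTOCHROME-DEPENDENT LATE-FLOWERING-like protein, had 8, 17 and 12 in WP and 7, 0 and 2 in BP with no overlap (log2 difference 1.84 ± 1.43, SE, adjusted p = 0.724 by edgeR's quasi-likelihood test).

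For light harvesting and photosystems, 0 of 4 loci were called with all libraries and 1 without BP3. This was LOC123067330, annotated as photosystem II D2 protein-like, after a protein of the reaction centre that splits water. Its locus (chr1A:556463121-556465346) had 25, 27 and 57 in WP and 117, 110 and 45 in BP. Without PUT it had 116, 39 and 76 in WC and 176, 305 and 177 in BC. BP3 was nearest to WP, with 13.8 CPM against 5.60 to 11.9 in WP, and the log2 difference was -1.49 ± 0.58 (SE) with it and -1.68 without it. LOC123068673, a chlorophyll a-b binding protein, had 34, 3 and 25 in WP and 28, 47 and 40 in BP with overlap. LOC123060531, annotated as the apoprotein A2 of photosystem I, had 6, 7 and 0 in WP and 14, 8 and 14 in BP with no overlap. These names rest on the annotation, and reads from other copies of such sequences in the DNA cannot be told apart here.

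In the list of disease resistance, 2 of 10 loci were called lower (1.77% of all loci tested), and both were called without BP3 (0.319% of all). The second, beside RGA2-like, was LOC123088626, a Pik-2-like immune receptor. Its locus (chr4A:750696408-750706875, 10468 bp) had 39, 47 and 53 in WP and 141, 134 and 110 in BP, 10.2 ± 1.26 against 32.5 ± 1.02 CPM (SD, n = 3 libraries each), 3.18 times as high in BP. The log2 difference was -1.67 ± 0.51 (SE), and without PUT WC had 104, 94 and 69 and BC 133, 122 and 122. With the library size over every locus, the log2 difference was -1.24 and the locus was not called. Without WP2 it was -1.71, as large as with all libraries, and missed the threshold on p.

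In the list of heat shock proteins, 1 of 5 loci was called, and it was higher in WP. It lay at LOC123081822, a 17.9 kDa class I heat shock protein-like chaperone, with 48, 28 and 0 in WP and 0, 0 and 3 in BP, so that WP3 was at 0 and the groups overlapped. It was not called without WP2, where the log2 difference was 4.14 in place of 4.25. LOC123128159, a heat shock 70 kDa protein 17-like, had 3, 3 and 0 in WP and 6, 18 and 22 in BP and was not called. In the list of peroxidases and glutathione, 1 of 9 loci was called, the peroxidase given above, and LOC123180333, another peroxidase 2-like gene of chromosome 1D, lay on the other side, with 1, 4 and 6 in WP and 14, 10 and 12 in BP (not called). Phenylpropanoids and flavonoids had 2 tested loci, and 0 were called. LOC123098061, a flavonoid 3',5'-hydroxylase 1-like of anthocyanin synthesis, had 17, 18 and 7 in WP and 2, 0 and 0 in BP with no overlap (adjusted p = 0.541 by edgeR's quasi-likelihood test).

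The effect of light with PUT was then set against that without PUT, as the interaction in a fit of all 12 libraries. Of 539307 loci kept by any of the 4 groups, 2 (0.000371%) passed an adjusted p of 0.05 by edgeR's quasi-likelihood method, chr4A:1-96 and chr4B:592421107-592422674, both of the group with very many reads. At the first the light difference with PUT differed by -1.62 ± 0.30 (log2, SE, adjusted p = 0.0114) from that without, and at the second by -0.43 ± 0.06 (adjusted p = 8.4e-07). This fit took the spread of each locus in full from the trend over all loci (infinite prior degrees of freedom). At the second, BP had 6152, 5434 and 26466. So these SE and p values do not measure the spread between libraries at either locus. Neither kept an adjusted p below 0.05 without BC1, BC3 or WP3, the first also lost it without WC2, WP1 or BP3, and the second without WC1. Without BP3 the second kept it, but the counts then gave an interaction of the opposite direction. BP1 and BP2 had 6152 and 5434 there, against 5055, 3956 and 3825 in WP. Without PUT the light difference was larger, with 8176, 15541 and 8557 in BC against 6318, 5868 and 4801 in WC. The likelihood ratio test found 0, and leaving out 1 library at a time gave 0 to 8. The unadjusted p was below 0.05 at 26298 loci (4.88%). At the thresholds of the study, the interaction was negative at 2214 loci (0.411%) and positive at 3240 (0.601%). In 1 Mb windows 0 of 14231 (0%) passed an adjusted p of 0.05 in the quasi-likelihood test, the unadjusted p was below 0.05 in 848 (5.96%), and the likelihood ratio test found 5.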

How the data were processed

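DNA of wheat leaves was enriched for 5mC by MeDIP and sequenced as read pairs. The deposited file holds raw read counts per locus for 12 libraries, made by the authors with FastQC, Trim Galore, cutadapt, BWA and bedtools on IWGSC CS RefSeq v2.1; 0 columns had an unknown sample, and the authors' pooled inputs were not used here. Loci were kept by the rule given above and tested with edgeR 4.0.16 (R 4.3.3) by the quasi-likelihood test, with TMM factors and library sizes over the kept loci, and Benjamini-Hochberg adjustment. CPM values of loci use the effective library size, and those of windows the whole library. Coordinates are 1-based. DESeq2 1.42.0, the likelihood ratio test, other scalings, filters, a replicate block and the omission of each library were tried. Figures were drawn with matplotlib 3.10.9, and tables made with pandas 2.3.3, scipy 1.17.1 and numpy 2.4.6 under Python 3.11.15. The fits were tested on simulated data.

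Named were the 6 loci with the smallest p in each direction, the 10 such loci within 3000 bp of a protein-coding gene, the tested loci of the genes the study listed, called or lowest-p members of the lists (at most 3 uncalled per list), the 5 windows with the smallest p in each direction and the 2 chromosomes that differed most in each direction. Product names came from the study's tables. Members and lists were chosen with earlier results of these data known.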

Additional observations from a re-analysis of the deposited data

Results flagged for a closer look

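At the first 96 bp of chromosome 4A (4A:1) the light difference with PUT differed from that without it, with an interaction of -1.62 ± 0.30 (log2, SE). At chr4B:592421107-592422674 the interaction was -0.43 ± 0.06. Both had an adjusted p below 0.05 in the test of the difference itself by edgeR's quasi-likelihood test, and 0 loci did so by the likelihood ratio test. As given above, the SE and p values of this fit do not measure the spread between libraries at these loci. Without BP3, the counts at the chr4B locus gave a smaller light difference with PUT than without it, opposite to the -0.43.

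At chr2D:13984604-13986504, near LOC123051117, a gene related to the oxidase of ethylene synthesis, the raw counts of the groups separated in opposite directions. With PUT the counts were 9, 12 and 11 under W light and 3, 6 and 8 under B light. Scaled to CPM these overlapped, with 2.02 to 2.73 in WP and 0.677, 1.44 and 2.45 in BP. Without PUT they were 0, 0 and 0 under W light and 5, 5 and 6 under B light. The fitted interaction was 6.41 on the log2 scale, which rests on a group at 0 and is no bound, with an adjusted p of 0.968 in edgeR's quasi-likelihood test.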

How the results depend on the processing

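The numbers called lower and higher were 15627 and 3382 by the likelihood ratio test, 20866 and 2721 by DESeq2, 4323 and 1239 with library size alone, 7895 and 444 with RLE size factors, 2435 and 2353 with library size over every locus, 22199 and 3211 at a count above 5, 1343 and 59 at a count above 20, 5746 and 598 when any 2 libraries had to exceed a count of 10, 9450 and 1573 at a total above 30, 22533 and 2453 with no filter, 7519 and 779 with all 12 libraries and 0 and 0 at an adjusted p below 0.05. After the data were seen, BP3 was left out together with library size over every locus, which gave 515 and 2096. Leaving out 1 library gave 1168 to 9651 lower and 262 to 1666 higher loci, 0 to 107 lower and 0 to 72 higher windows, 0 to 9 chromosomes, 11 to 25 values per library without overlap, 0 to 8 loci and 0 to 5 windows with an interaction and 25 to 30 called of the 31 loci named for the smallest p, with or without a gene nearby. The replicate block gave 3169 lower and 235 higher loci. At the kept loci, the deviations of same-numbered libraries correlated at 0.053, 0.006 and 0.019, and those of other pairs at -0.033 to 0.021. With so few reads per locus, these values cannot show whether same-numbered libraries shared a chamber or a day. With the count above 20, 12 of these 31 loci were called. The likelihood ratio test gave 1 window lower, 0 loci and 5 windows with an interaction, and library size alone gave 1 locus and the block 0 loci with an interaction. Without the 3000 bp on both sides, 90 loci at genes were called, against 322. With 1 library left out, the log2 difference at 2B:712910577 ran from -1.48 to 0.22 and turned without BP2. The log2 difference at 5B:144109266 ran from -2.99 to 0.51, the log2 difference at 5B:151988058 from -2.92 to 0.45 and the log2 difference at 5B:144127499 from -3.26 to 0.74, and these turned without BP3. The cause was not tested. The median mean count of 10.2 limits what can be called at a single locus.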
